A study of Mus musculus with 48 samples.

Results

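Kidneys of Hyp mice fed a control diet were set against kidneys of normal mice fed a low phosphorus diet, which places the mutation at adequate phosphorus intake against dietary restriction without the mutation. The pools were chosen by their genotype and diet labels alone: 6 pools of Hyp kidney RNA and 6 pools of normal kidney RNA, with 3 male and 3 female pools on each side and no pool on both. Each pool was hybridised to the 430A and the 430B mouse chip, so the comparison uses 12 of the study's 24 pools and 24 of its 48 arrays. The study as a whole crossed genotype, diet and sex in 8 groups of 3 pools. It used 72 mice, with RNA from 3 mice in each pool, all 10 weeks old and all kept on their diet for 3 days with deionized water. The Hyp mutation disrupts Phex, a gene on the X chromosome. The labels name neither the strain nor whether the Hyp females carried 1 or 2 mutant copies. The other 12 pools are normal mice on the control diet, used below as a reference for both sides, and Hyp mice on the low phosphorus diet. The latter enter only the estimate of the spread, the filter on low signals and the choice of probe set for each gene.

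Loss of Phex raises circulating FGF23, a hormone made in bone. FGF23 acts on the kidney through FGF receptors and the co-receptor Klotho, signals through the ERK kinases, withdraws sodium phosphate carriers from the proximal tubule and favours breakdown of active vitamin D. Dietary phosphorus restriction in normal mice lowers FGF23, and the proximal tubule then retains phosphate and makes more active vitamin D. Plasma phosphate is low in Hyp mice in spite of adequate intake.

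Values are array signals on the deposited linear scale. A difference is the log2 of the Hyp control signal minus the log2 of the normal low phosphorus signal, averaged over the sexes with equal weight, and stands with its standard error. A gene is said to be higher or lower only where limma's p-value, adjusted over 18633 features, was under 0.05. The replicates are pools of different mice, so p-values refer to the spread between pools, which is smaller than that between animals. Whole kidney RNA cannot tell fewer cells of a type from less RNA per cell, and this holds for every result here.

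Median signals were 164.6 to 211.2 for 430A arrays and 50.9 to 68.3 for 430B arrays. The number of arrays limits the precision, since arrays carry no read depth. The sex labels matched in all 12 pools: Xist, the RNA that silences 1 X chromosome, ran from 62.1 to 180.3 in the 6 male pools and from 1622.4 to 1940.7 in the 6 female pools. Phex itself checks nothing, because its probe sets never exceeded 32.8 and 49.8 on any array and did not pass the filter on low signals. The labelled tissue fitted its markers, with Slc34a1, Lrp2, Slc12a3 and Aqp2 all above the array median in every pool.

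The comparison called 379 of 18633 features (2.03%), with 175 higher (0.939%) and 204 lower (1.09%) in Hyp control pools. Which direction held more calls turned with the scaling, with 161 higher and 136 lower when arrays were scaled to a common median, and 206 higher and 190 lower after quantile normalization. An unadjusted p under 0.05 was reached by 2151 features (11.5%). Of the 379 called features, 332 carried a gene name, 145 higher and 187 lower. Among the 332, 328 had the same sign in males and in females, which the choice by the mean over both sexes favours. Over all features the male and female differences correlated at 0.1. Most differences were modest, with a median absolute log2 difference of 0.58 among called features. Only 43 features were more than 2-fold higher and 21 more than 2-fold lower. The signals of the 6 pools of each side did not overlap for 204 of 18633 features (1.09%). Of 152 called genes with 1 or more further kept probe sets, at least 1 of these was called in the same direction for 66 and in the opposite direction for 0. With only the 12 compared pools in the fit, 203 features were called, 195 of them among the 379.

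**Figure D1:**
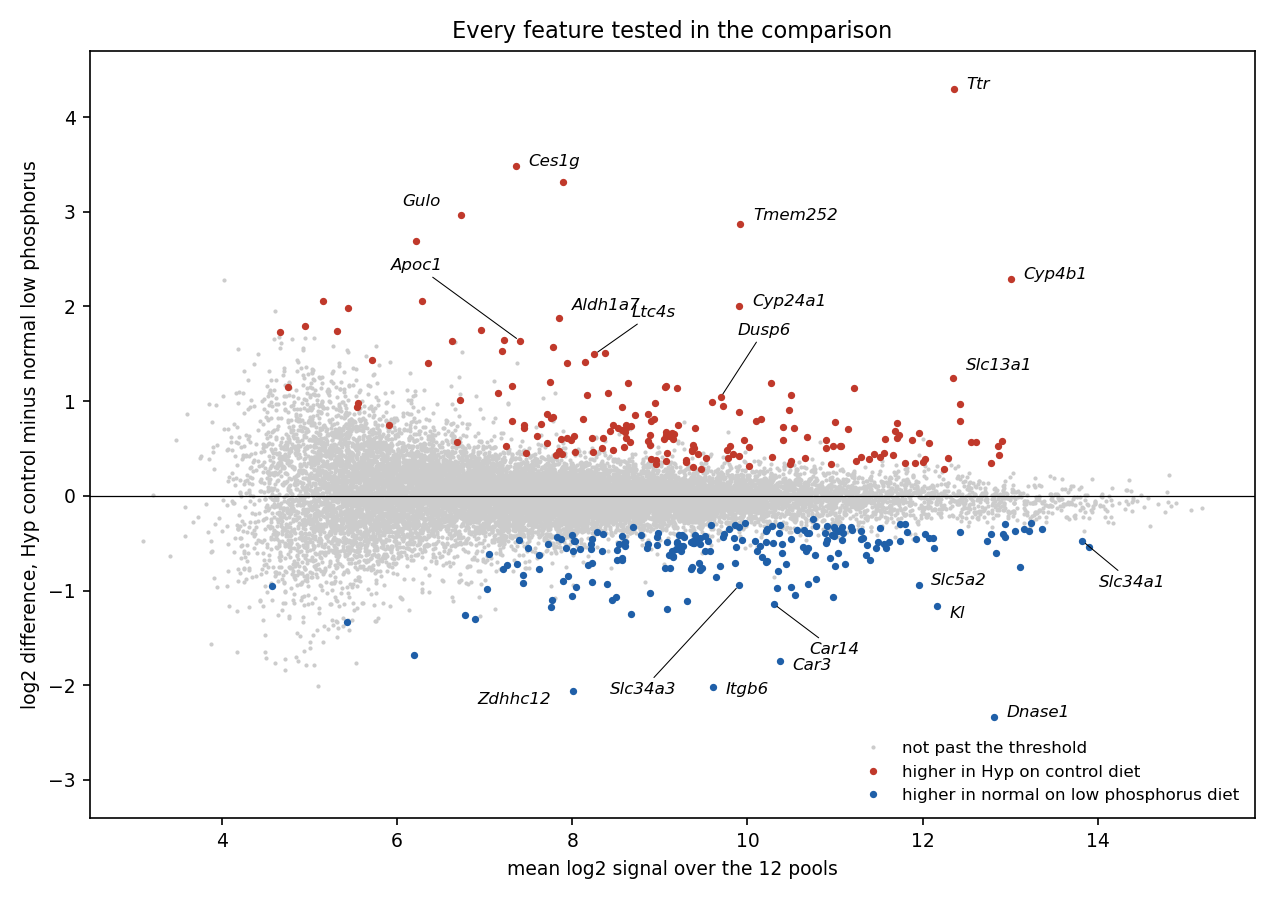
Each point is 1 of the 18633 features, with its mean log2 signal over the 12 pools on the horizontal axis and the log2 difference, Hyp control minus normal low phosphorus, on the vertical axis; red and blue points passed the adjusted p threshold. Ttr stands highest at 4.30 and Dnase1 lowest among the called features at -2.34.

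The vitamin D enzyme that inactivates the hormone was higher in Hyp control kidneys, while the enzyme that activates it did not differ by the test. Cyp24a1, the 24-hydroxylase that breaks down active vitamin D, had signals of 1815.5, 2627.6 and 2155.2 in male and 1382.6, 2023.2 and 1757.4 in female Hyp control pools. In normal low phosphorus pools it had 318.7, 352.1 and 434.6 in males and 508.6, 561.3 and 873.8 in females. Every Hyp control pool lay above every normal low phosphorus pool. Cyp24a1 was 4.01-fold higher (log2 2.00 ± 0.19, adjusted p = 1.36e-06), and a further probe set of the gene gave 1.64 ± 0.18.

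Cyp27b1, the 1-alpha-hydroxylase that makes active vitamin D, had signals of 160.3, 134.0 and 220.6 in male and 225.5, 637.3 and 177.8 in female Hyp control pools. The normal low phosphorus pools had 435.4, 384.9 and 284.3 in males and 337.4, 414.6 and 161.2 in females. In males the sides did not overlap, whereas in females 1 Hyp control pool stood above all others and the sides overlapped. The difference of -0.52 ± 0.37 did not pass the test (adjusted p = 0.672, 95% interval -1.30 to 0.25). Relative to the normal control pools, Cyp27b1 was higher in normal low phosphorus pools (2.11 ± 0.37, adjusted p = 0.00822), and the Hyp control value was 1.59 ± 0.37 (adjusted p = 0.0542). The receptor gene Vdr gave -0.04 ± 0.09, with an interval from -0.23 to 0.16. Of 10 measured genes of vitamin D metabolism, uptake and action, Cyp24a1 alone passed, where 2.03% of all features did. The list's median was -0.14, beside -0.01 over all features.

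The receptor genes Kl and Pth1r of the phosphate-regulating hormones were lower in Hyp control kidneys. Kl, which encodes the FGF23 co-receptor Klotho, had 3447.1, 3840.8 and 4025.2 in male and 1911.7, 2630.0 and 3124.1 in female Hyp control pools. In normal low phosphorus pools Kl had 7621.6, 7740.1 and 7845.2 in males and 4991.1, 6690.2 and 6721.7 in females. The sides did not overlap, and within each side every male pool lay above every female pool. Kl was 2.23-fold lower (-1.16 ± 0.11, adjusted p = 8.3e-07).

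Pth1r, the receptor of parathyroid hormone, had 3936.4, 4016.2 and 4052.6 in male and 3498.4, 3413.0 and 3374.0 in female Hyp control pools. In normal low phosphorus pools it had 6096.7, 5291.0 and 5810.8 in males and 5167.3, 5352.0 and 4846.5 in females. Again no pool of one side reached the other, and Pth1r was 1.46-fold lower (-0.55 ± 0.06, adjusted p = 7.68e-06). Of the 7 measured genes of this group, 3 were lower (1.09% over all features) and 0 higher by limma, none higher at an unadjusted p under 0.05 either, with a median of -0.31. The third was Frs3, an FGF receptor adaptor, at -0.92 ± 0.24 (adjusted p = 0.0469), and its call was lost without any 1 of 9 of the 12 pools (adjusted p up to 0.119). Fgfr1, the main FGF receptor partner of Klotho, gave -0.31 ± 0.14 (adjusted p = 0.378).

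The proximal tubule sodium phosphate carriers were lower in Hyp control kidneys by less than 2-fold. Slc34a1, the main renal carrier NaPi-2a, had 12463.8, 12274.3 and 15415.8 in male and 9785.3, 12333.1 and 11955.0 in female Hyp control pools. It had 17944.9, 18147.7 and 18724.4 in male and 16145.0, 14188.4 and 17515.7 in female normal low phosphorus pools. Within each sex the sides did not overlap, and across sexes they did, through the highest Hyp male pool and the lowest normal female pool. Slc34a1 was 1.39-fold lower (-0.47 ± 0.09, adjusted p = 0.00279).

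Slc34a3, the second apical carrier NaPi-2c, had 624.0, 598.8 and 664.7 in male and 805.9, 798.8 and 679.0 in female Hyp control pools. The normal low phosphorus pools had 1069.0, 1310.3 and 1293.7 in males and 1413.2, 1409.0 and 1531.9 in females, all above every Hyp control pool. Slc34a3 was 1.93-fold lower (-0.95 ± 0.11, adjusted p = 4.48e-05). Pdzk1, a scaffold that holds NaPi-2a at the brush border, ran from 5844.7 to 7514.4 in Hyp control and from 8108.5 to 10397.9 in normal low phosphorus pools, a difference of -0.43 ± 0.08 (adjusted p = 0.00434).

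In all, 3 of 10 measured phosphate carriers and scaffolds were lower (1.09% over all features) and 0 higher by limma, with 1 higher at an unadjusted p under 0.05 and a median of -0.23. The widely expressed carriers Slc20a1 and Slc20a2 gave -0.27 ± 0.12 and -0.21 ± 0.16, and Slc34a2 gave 0.52 ± 0.19, and none of them passed. Not every apical carrier of the proximal tubule went down. Slc13a1, the sodium sulfate carrier, chosen after its values were seen, ran from 7052.3 to 9060.7 in Hyp control and from 2720.7 to 4015.4 in normal low phosphorus pools. It was 2.37-fold higher (1.24 ± 0.09, adjusted p = 2.1e-08), with no overlap.

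**Figure D2:**
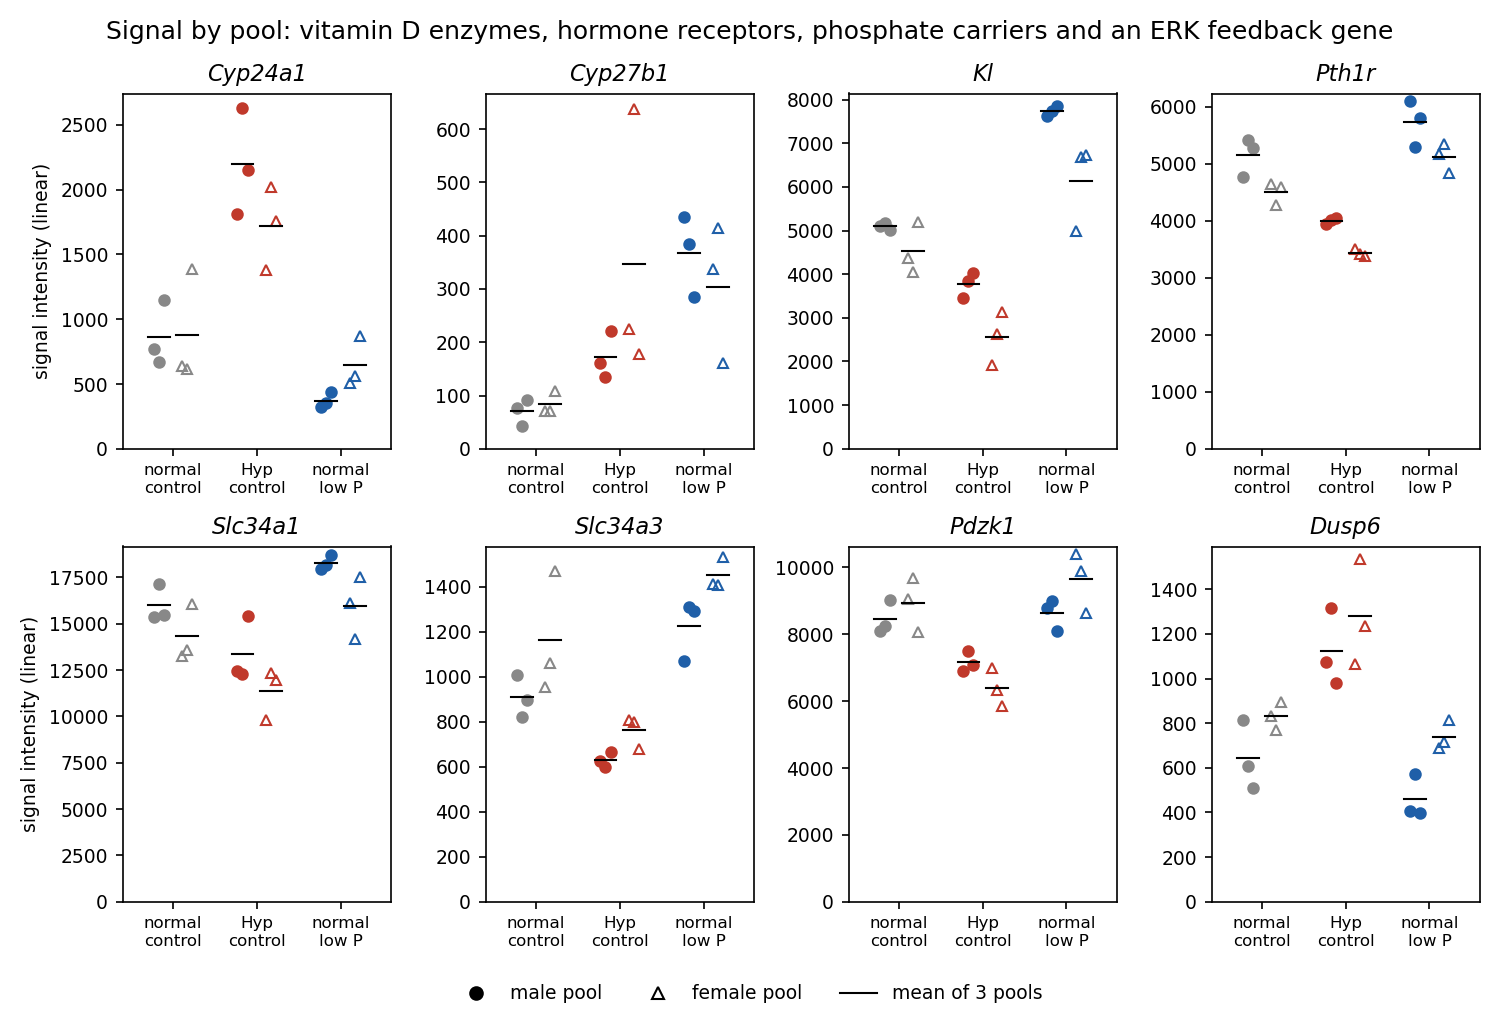
Linear signals of 8 genes in single pools of normal mice on the control diet (grey), Hyp mice on the control diet (red) and normal mice on the low phosphorus diet (blue), with male pools as filled circles, female pools as open triangles and bars at the mean of 3 pools. For Cyp24a1, Kl, Pth1r, Slc34a3, Pdzk1 and Dusp6 the red and blue pools do not overlap.

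Of 12 measured feedback and target genes of FGF and ERK signalling, 6 were higher in Hyp control kidneys, where 0.939% of all features were. Dusp6, a phosphatase that switches off ERK and is itself switched on by it, had 1072.6, 1314.2 and 982.2 in male and 1067.2, 1534.6 and 1234.0 in female Hyp control pools. It had 407.1, 572.9 and 396.5 in male and 689.3, 717.3 and 813.6 in female normal low phosphorus pools. The sides did not overlap, and Dusp6 was 2.05-fold higher (1.04 ± 0.12, adjusted p = 2.25e-05).

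Ier3, an early response gene downstream of ERK, ran from 1670.9 to 2704.3 in Hyp control and from 523.7 to 1653.4 in normal low phosphorus pools, 1.07 ± 0.13 higher (adjusted p = 2.54e-05). The transcription factor gene Etv5 was 1.08 ± 0.17 higher, although its probe set exceeded the array median in none of the normal low phosphorus pools. A further, called probe set of Etv5 gave 1.85 ± 0.19. Dusp4, a nuclear ERK phosphatase, was 1.64 ± 0.29 higher (adjusted p = 0.00281). It rests on low signals, from 21.4 to 101.9 in normal low phosphorus pools, and its value fell as far as 1.05 under the alternatives.

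Of these 12 genes 0 were lower by limma, none lower at an unadjusted p under 0.05 either, with a median of 0.68 beside -0.01 over all features. Against normal mice on the control diet, the list's median was 0.25 in Hyp control and -0.32 in normal low phosphorus pools. The others past the threshold, named after their values were seen, were Spry2 at 0.69 ± 0.13 and Spred1 at 0.46 ± 0.11, both inhibitors of the pathway upstream of ERK. Spred1 was lost without any 1 of 7 of the 12 pools (adjusted p up to 0.101), and Dusp4, Spry2 and Spred1 were lost when only the 12 compared pools entered the fit. None of the further Spred1 probe sets passed, with values from -0.38 ± 0.33 to 0.58 ± 0.16 (adjusted p from 0.0848 to 0.752). The list of 13 measured immediate early genes held 0 genes called by limma, a count near the 2.03% of all features, and had a median of -0.01. An unadjusted p under 0.05 was reached by 4 of the 13, beside 11.5% of all features, and the difference between the lists was not tested.

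**Figure D3:**
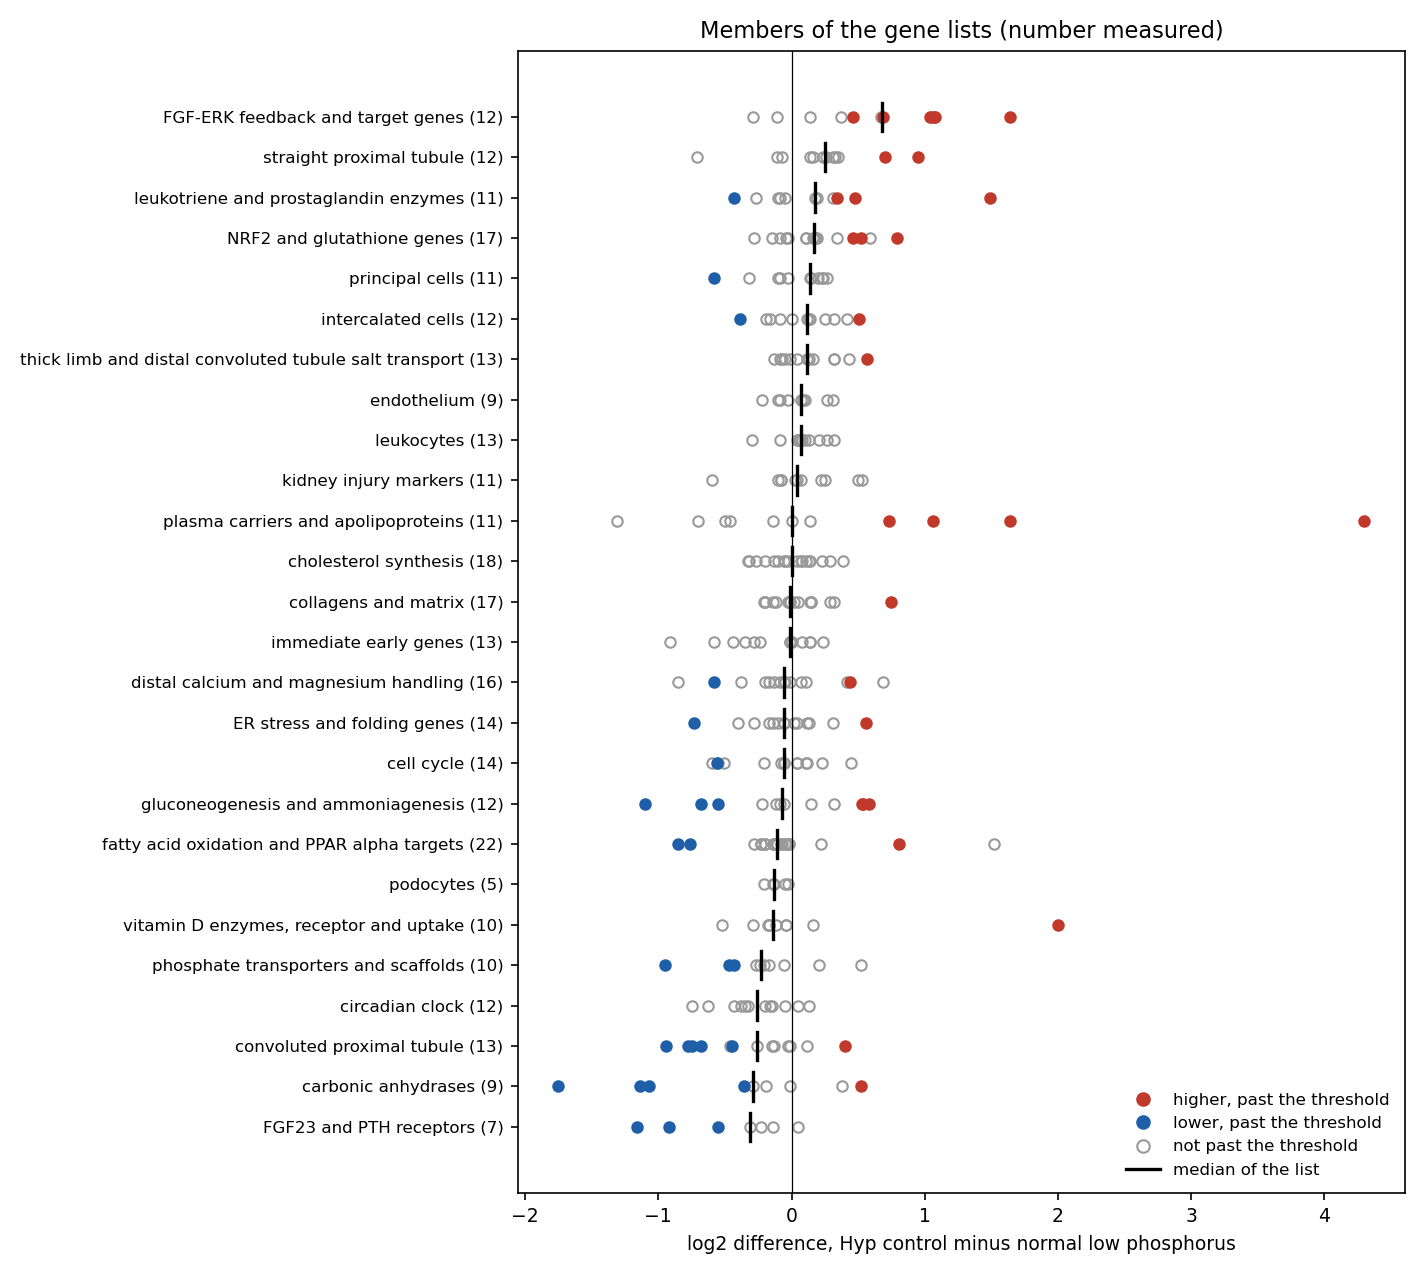
Each row is a gene list with at least 5 measured members, with their number, and each point is the log2 difference, Hyp control minus normal low phosphorus, of 1 member, filled where it passed the adjusted p threshold; black bars mark the list medians. Among the lists plotted, ERK feedback genes have the highest median, 0.68, and the FGF23 and parathyroid hormone receptors the lowest, -0.31.

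The largest differences of all lay in genes outside phosphate transport. Ttr, which encodes transthyretin, a plasma carrier of thyroid hormone and of the retinol-binding protein, had 24741.6, 25361.0 and 30854.9 in male and 22371.3, 20586.4 and 17959.3 in female Hyp control pools. In normal low phosphorus pools it had 2460.2, 1724.0 and 1753.6 in males and 698.5, 733.6 and 722.6 in females. Every Hyp control pool was far above every normal low phosphorus pool, and Ttr was 19.7-fold higher (4.30 ± 0.12, adjusted p = 2.58e-15). The Hyp control signals lie near the top of the array range, where the highest signals of an array were 30302.6 to 47504.4, and whether saturation limits the ratio was not tested. The 3 further Ttr probe sets, all with lower mean signals, gave 4.74 ± 0.12, 4.57 ± 0.15 and 4.29 ± 0.12.

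Tmem252, which encodes a small membrane protein, had 3249.8, 2922.7 and 3484.5 in male and 2476.9, 2700.5 and 1463.4 in female Hyp control pools. The normal low phosphorus pools held a narrow band from 319.8 to 410.6, well below all Hyp control pools. Tmem252 was 7.31-fold higher (2.87 ± 0.15, adjusted p = 1.64e-09).

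Gulo, the last enzyme of vitamin C synthesis in mice and chiefly a liver enzyme, had 293.8, 232.0 and 186.0 in male and 367.3, 482.7 and 302.9 in female Hyp control pools. It had 55.3, 47.7 and 28.9 in male and 96.5, 17.1 and 23.5 in female normal low phosphorus pools, all under the array median. The fold of 7.83 (2.97 ± 0.30, adjusted p = 2.39e-06) therefore rests on signals near background on the restricted side. The same holds for Ces1g, a carboxylesterase, at 3.48 ± 0.29, for Apoc1, a lipoprotein component, at 1.64 ± 0.23, and for Aldh1a7, an aldehyde dehydrogenase, at 1.87 ± 0.11. In all, 6 of the 12 largest rises exceeded the array median in no normal low phosphorus pool and passed the filter through other pools.

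Cyp4b1, a monooxygenase of the cytochrome P450 family, was 4.89-fold higher over both sexes, and the sexes are given apart below. The remaining large rises besides Dusp4 were Aunip, which encodes a mitotic kinase partner (1.98 ± 0.30), the cation channel gene Trpc4 (1.74 ± 0.38) and the transcription factor gene Gata6 (1.73 ± 0.43), all from low signals with highest values of 115.8, 163.1 and 83.3. Gata6 lost its call without any 1 of 10 of the 12 pools (adjusted p up to 0.103). Trpc4 lost it without male normal low phosphorus pool 3 (adjusted p = 0.0549), and without the filter another probe set stood for the gene and gave -0.63.

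Several of these genes are best known from liver. Among 11 measured plasma carriers and apolipoproteins 4 were higher (0.939% over all features) and 0 lower, namely Ttr, Apoc1, Alb at 1.06 ± 0.22 and Apob at 0.73 ± 0.17, and the median was -0.00. By limma, 2 were lower at an unadjusted p under 0.05. Albumin ran from 221.5 to 1054.4 in Hyp control and from 159.6 to 294.1 in normal low phosphorus pools, with overlap, and lost its call with only the 12 compared pools (adjusted p = 0.0858). Apob, the structural protein of low density lipoprotein, lost it without any 1 of 5 of the 12 pools (adjusted p up to 0.0734). The Apob call was also lost with only the 12 compared pools and without the filter. A further Apob probe set gave 0.30 ± 0.18 (adjusted p = 0.598). Apoe and Apom gave -0.00 ± 0.11 and 0.14 ± 0.09. Of 9 liver markers, Alb alone was measured as a named gene past the filter. Mup1, Serpina1a and Serpina3k were not measured under their own names, so their levels were not examined. The highest signals of Ahsg, Hpx, Cyp3a11, Cps1 and Cyp2c29 in the 12 pools were 20.0, 100.9, 98.0, 153.2 and 197.6, near or under the lowest array median of 164.6.

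The largest fall was that of Dnase1, a secreted nuclease made in the kidney. It had 4394.8, 3210.1 and 4120.1 in male and 2649.5, 2444.4 and 2811.0 in female Hyp control pools. It had 16251.1, 15575.7 and 17980.6 in male and 15596.9, 12790.0 and 19311.0 in female normal low phosphorus pools. The sides were far apart in both sexes, and Dnase1 was 5.05-fold lower (-2.34 ± 0.14, adjusted p = 1.95e-09).

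Itgb6, a subunit of an epithelial integrin that activates TGF-beta, had 318.6, 399.1 and 306.2 in male and 340.8, 553.5 and 453.6 in female Hyp control pools. The normal low phosphorus pools had 1588.4, 1558.5 and 1382.1 in males and 1468.3, 1725.2 and 1719.6 in females. No pool came near the other side, and Itgb6 was 4.06-fold lower (-2.02 ± 0.13, adjusted p = 6.94e-09), with -2.08 ± 0.13 from a further probe set.

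Carbonic anhydrases, which interconvert carbon dioxide and bicarbonate, supplied 3 of the 12 largest falls. Car3, a cytosolic isoform, had 598.5, 1094.2 and 624.2 in male and 641.5, 1000.3 and 540.9 in female Hyp control pools. It had 3270.7, 3183.4 and 3291.2 in male and 1428.5, 2233.5 and 1850.5 in female normal low phosphorus pools. All Hyp control pools were lower, and Car3 was 3.35-fold lower (-1.75 ± 0.17, adjusted p = 1.7e-06). Car3 is also abundant in fat, and the other fat markers measured, Adipoq, Fabp4 and Retn, gave 0.19 ± 0.23, 0.13 ± 0.14 and 0.02 ± 0.12. The summed signal of the 4 fat markers, Car3 included, ran from 2267 to 3642 in Hyp control and from 3620 to 5142 in normal low phosphorus pools. Because Car3 is part of this sum, the sum cannot tell fat content from the fall of Car3 itself, and fat content was not tested.

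The membrane-bound isoforms Car14 and Car4 were 2.21-fold and 2.10-fold lower (-1.14 ± 0.11 and -1.07 ± 0.12). Car12, named after its value was seen, was lower by a smaller amount (-0.36 ± 0.07), and a second probe set of it did not pass (adjusted p = 0.498). Car15, another membrane-bound isoform, went the other way at 0.52 ± 0.08 (adjusted p = 0.000846). Car2, the cytosolic isoform common to several nephron segments, gave -0.01 and did not pass. Of 9 measured isoforms, 4 were lower and 1 higher, beside 1.09% and 0.939% of all features.

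Besides Kl, the other large falls were Cyp2d12, a cytochrome P450 (-1.11 ± 0.11), Cpeb3, a translational regulator (-1.25 ± 0.20), Gcgr, the glucagon receptor (-1.10 ± 0.20), Zdhhc12, a palmitoyltransferase (-2.07 ± 0.47), the Ran regulator Rcc1 (-1.30 ± 0.33) and Arhgap10 (-1.25 ± 0.32). The last 2 had low signals and lost their calls without any 1 of 11 of the 12 pools, with adjusted p up to 0.113 and 0.122. Zdhhc12 lost its call without female Hyp control pool 1, male Hyp control pool 2, female normal low phosphorus pool 3 or male normal low phosphorus pool 2 (adjusted p up to 0.0655). Of the 12 largest falls, 10 had no overlap between the sides, as had 8 of the 12 largest rises, beside 1.09% of all features. These genes were chosen by the size of the same difference, which favours a lack of overlap.

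Several transporters of the convoluted proximal tubule were lower in Hyp control kidneys. Slc5a2, the main renal glucose carrier, ran from 2543.4 to 3282.6 in Hyp control and from 4966.2 to 6566.3 in normal low phosphorus pools, with no overlap in either sex. It was 1.92-fold lower (-0.94 ± 0.09, adjusted p = 8.36e-07), and a further probe set gave -1.22 ± 0.10. Slc2a2, the glucose carrier of the opposite membrane, gave -0.68 ± 0.09, the urate carrier Slc22a12 gave -0.75 ± 0.09 and the amino acid carrier subunits Slc7a8 and Slc7a7 gave -0.78 ± 0.13 and -0.45 ± 0.08. All passed. Of 13 measured genes of this segment 5 were lower and 1 higher, beside 1.09% and 0.939% of all features, with a median of -0.26. The endocytic receptor genes of the same cells, Lrp2 and Cubn, gave -0.18 ± 0.07 and -0.17 ± 0.07 and did not pass. The summed signal of the segment's markers ran from 38740 to 46870 in Hyp control and from 51090 to 54010 in normal low phosphorus pools, and the part of cell number in these results was not tested. Of 12 straight segment genes 2 were higher (0.939% over all features) and 0 lower by limma, none lower at an unadjusted p under 0.05 either, with a median of 0.25. They were Cyp7b1, a sterol hydroxylase, at 0.95 ± 0.15, and Slc7a12 at 0.70 ± 0.17, which lost its call without any 1 of 6 of the 12 pools (adjusted p up to 0.0831).

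In the distal nephron, Slc12a3, the thiazide-sensitive salt carrier of the distal convoluted tubule, ran from 6753.6 to 8067.0 in Hyp control and from 3987.0 to 6069.7 in normal low phosphorus pools. All Hyp control pools were higher, by 0.57 ± 0.07 (adjusted p = 2.23e-05). Of 13 measured salt transport genes of the thick limb and distal tubule, Slc12a3 alone passed (7.69%), beside 2.03% of all features. Pvalb, a calcium-binding protein of the same cells, was lower at -0.58 ± 0.10. Calb1, the calcium buffer calbindin, gave 0.44 ± 0.11 (adjusted p = 0.0328) and lost its call without any 1 of 9 of the 12 pools (adjusted p up to 0.103). S100g, the smaller vitamin D-dependent calbindin, gave 0.11 ± 0.13 with an interval from -0.16 to 0.39. Among 16 measured calcium and magnesium genes, Calb1 and Pvalb passed the threshold (12.5%), beside 2.03% of all features. Slc26a4, the chloride bicarbonate exchanger pendrin of intercalated cells, was lower at -0.39 ± 0.08 (adjusted p = 0.00666), a call lost with only the 12 compared pools and with arrays scaled to a common median.

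Genes of glucose production and ammonia handling moved in both directions, 3 higher and 3 lower of 12 measured, beside 0.939% and 1.09% of all features. Pck1, the rate-limiting enzyme of glucose synthesis, had 9060.9, 9066.1 and 9784.1 in male and 9927.6, 10414.0 and 8093.7 in female Hyp control pools. In normal low phosphorus pools it had 6301.3, 4210.4 and 3386.0 in males but 8364.3, 9251.1 and 8825.8 in females. The male pools were clearly apart and the female pools overlapped. The difference over both sexes was 0.58 ± 0.12 (adjusted p = 0.0115), and the difference between the sexes, 0.96 ± 0.25, did not pass (adjusted p = 0.347). The call was lost with only the 12 compared pools (adjusted p = 0.0795). Slc38a3, the glutamine carrier that feeds ammonia production, and G6pc, the last step of glucose release, gave 0.54 ± 0.12 and 0.53 ± 0.13 and were named after their values were seen. Slc38a3 was lost without male normal low phosphorus pool 2 (adjusted p = 0.051), and G6pc without any 1 of 8 of the 12 pools (adjusted p up to 0.0966). Slc38a3 and G6pc were also lost with only the 12 compared pools. A further Slc38a3 probe set with low signals gave 0.18 ± 0.70 (adjusted p = 0.963). Lower members besides Slc2a2 and Gcgr included Pcx, pyruvate carboxylase, at -0.55 ± 0.09.

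Lipid and stress genes gave scattered differences. Ltc4s, the enzyme that makes leukotriene C4, had 584.7, 322.9 and 388.1 in male and 571.4, 698.8 and 613.1 in female Hyp control pools. It ran from 138.0 to 210.3 in normal low phosphorus pools, below all of these, and was 2.82-fold higher (1.49 ± 0.14, adjusted p = 1.19e-06). The lipid-sensing receptor gene Ppara was higher at 0.81 ± 0.15, while the fatty acyl thioesterase gene Acot1, a known target of that receptor, was lower at -0.76 ± 0.13. Of 22 measured genes of fatty acid oxidation, 1 was higher and 2 lower, beside 0.939% and 1.09% of all features. The glutathione transferases Gsta2, Gsta4 and Mgst1 were higher at 0.79 ± 0.11, 0.52 ± 0.11 and 0.46 ± 0.10, and they were the 3 called genes of 17 measured in the NRF2 and glutathione list, beside 2.03% of all features. Gsta4 and Mgst1 lost their calls with only the 12 compared pools (adjusted p = 0.0818 and 0.0664). Xbp1, a transcription factor of the unfolded protein response, was higher at 0.56 ± 0.09, and Derl3, which serves in protein disposal from the endoplasmic reticulum, was lower at -0.73 ± 0.15.

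Some lists held no called gene, which at 2.03% of all features called is near the background for lists of this size. The tests called 0 of 11 kidney injury markers, 0 of 18 cholesterol synthesis genes and 0 of 12 clock genes, whose median was -0.26. They also called 0 of 13 leukocyte, 0 of 9 endothelial and 0 of 5 podocyte markers, with medians of 0.07, 0.07 and -0.13. In the same limma fit, an unadjusted p under 0.05 was reached by 4 injury, 5 cholesterol synthesis, 2 clock, 3 leukocyte, 3 endothelial and 0 podocyte genes, beside 11.5% of all features. Single members passed under some alternatives. The injury gene Fga passed with the series number as a block, with trend and robust eBayes and when adjusted within each chip (adjusted p down to 0.029). The leukocyte gene C1qb passed with either scaling (adjusted p down to 0.0343). Nr1d1 of the clock, Msmo1 of cholesterol synthesis, the injury gene Cd44 and the endothelial gene Emcn each passed with 1 particular pool left out. The summed leukocyte signal ran from 11950 to 14810 in Hyp control and from 10980 to 14930 in normal low phosphorus pools. Of 17 collagen and matrix genes 1 was called, beside 2.03% of all features. It was Col5a2, a fibrillar collagen chain, which was higher at 0.75 ± 0.10 (adjusted p = 7.28e-05).

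Each side can also be read against normal mice on the control diet. In these 2 comparisons 124 features (0.665%) were called for Hyp control pools, 77 higher (0.413%) and 47 lower (0.252%). For normal low phosphorus pools 87 (0.467%) were called, 37 higher (0.199%) and 50 lower (0.268%). They share the normal control pools, and each shares a side with the comparison described here, so the values stand side by side without a test of their likeness. Ttr had 7207.5, 5674.7 and 5596.1 in male and 2767.6, 2445.8 and 3752.3 in female normal control pools, between the sides in both sexes. It was 2.46 ± 0.12 higher in Hyp control and fell by 1.84 on the log2 scale in normal low phosphorus pools. Kl was -0.65 ± 0.11 in Hyp control and 0.51 ± 0.11 in normal low phosphorus pools, and Itgb6 was -1.14 ± 0.13 and 0.88 ± 0.13. Tmem252 was 1.85 ± 0.15 and -1.02 ± 0.15, and Cyp4b1 was 1.10 ± 0.14 and -1.19 ± 0.14. All of these passed on both sides, in opposite directions. The Cyp4b1 values are averages over the sexes. Its mean signals in Hyp control and normal control pools were 30040 and 29360 in males and 11030 and 2510 in females.

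For other genes 1 of these comparisons passed and the other did not. Dnase1 was -2.17 ± 0.14 in Hyp control and 0.17 ± 0.14 in normal low phosphorus pools (adjusted p = 0.793). Slc12a3 was 0.55 ± 0.07 against -0.02 ± 0.07 (adjusted p = 0.975), and Slc5a2 was -0.74 ± 0.09 against 0.20 ± 0.09 (adjusted p = 0.502). Cyp24a1 was 1.22 ± 0.19 in Hyp control, and its value of -0.79 ± 0.19 in normal low phosphorus pools did not pass (adjusted p = 0.0859). In the other direction, Gsta2 was -0.13 ± 0.11 in Hyp control (adjusted p = 0.834) and -0.92 ± 0.11 in normal low phosphorus pools (adjusted p = 8.73e-05). Acot1 was -0.01 ± 0.13 (adjusted p = 0.993) and 0.75 ± 0.13 (adjusted p = 0.00831), and Slc26a4 was 0.28 ± 0.08 (adjusted p = 0.147) and 0.67 ± 0.08 (adjusted p = 9.18e-05).

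A further 8 named genes passed in the same direction on both sides. Mdk, which encodes the growth factor midkine, had 453.5, 570.7 and 537.6 in male and 827.8, 817.2 and 722.8 in female Hyp control pools. It had 960.1, 1150.2 and 1069.8 in male and 1059.4, 1268.2 and 918.3 in female normal low phosphorus pools. The restricted normal pools were all higher, and both sides were above normal mice on the control diet, by 0.79 ± 0.10 and 1.52 ± 0.10. Mdk was thus 1.67-fold lower in Hyp control than in normal low phosphorus pools (-0.74 ± 0.10, adjusted p = 9.28e-05). For the other 7, Hyp control and normal low phosphorus pools did not differ by the test. The 95% intervals of their differences were -0.22 to 0.22 for the lipoprotein gene Apoe, -0.04 to 0.33 for Apom and -0.36 to -0.04 for the peptidase gene Dpp7, which were higher on both sides. The intervals were -0.14 to 0.15 for Fmo1, -0.11 to 0.16 for the carrier gene Slc16a4, -0.18 to 0.21 for Ugt2b38 and -0.32 to 0.16 for the carnosinase gene Cndp1, which were lower on both sides.

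**Figure D4:**
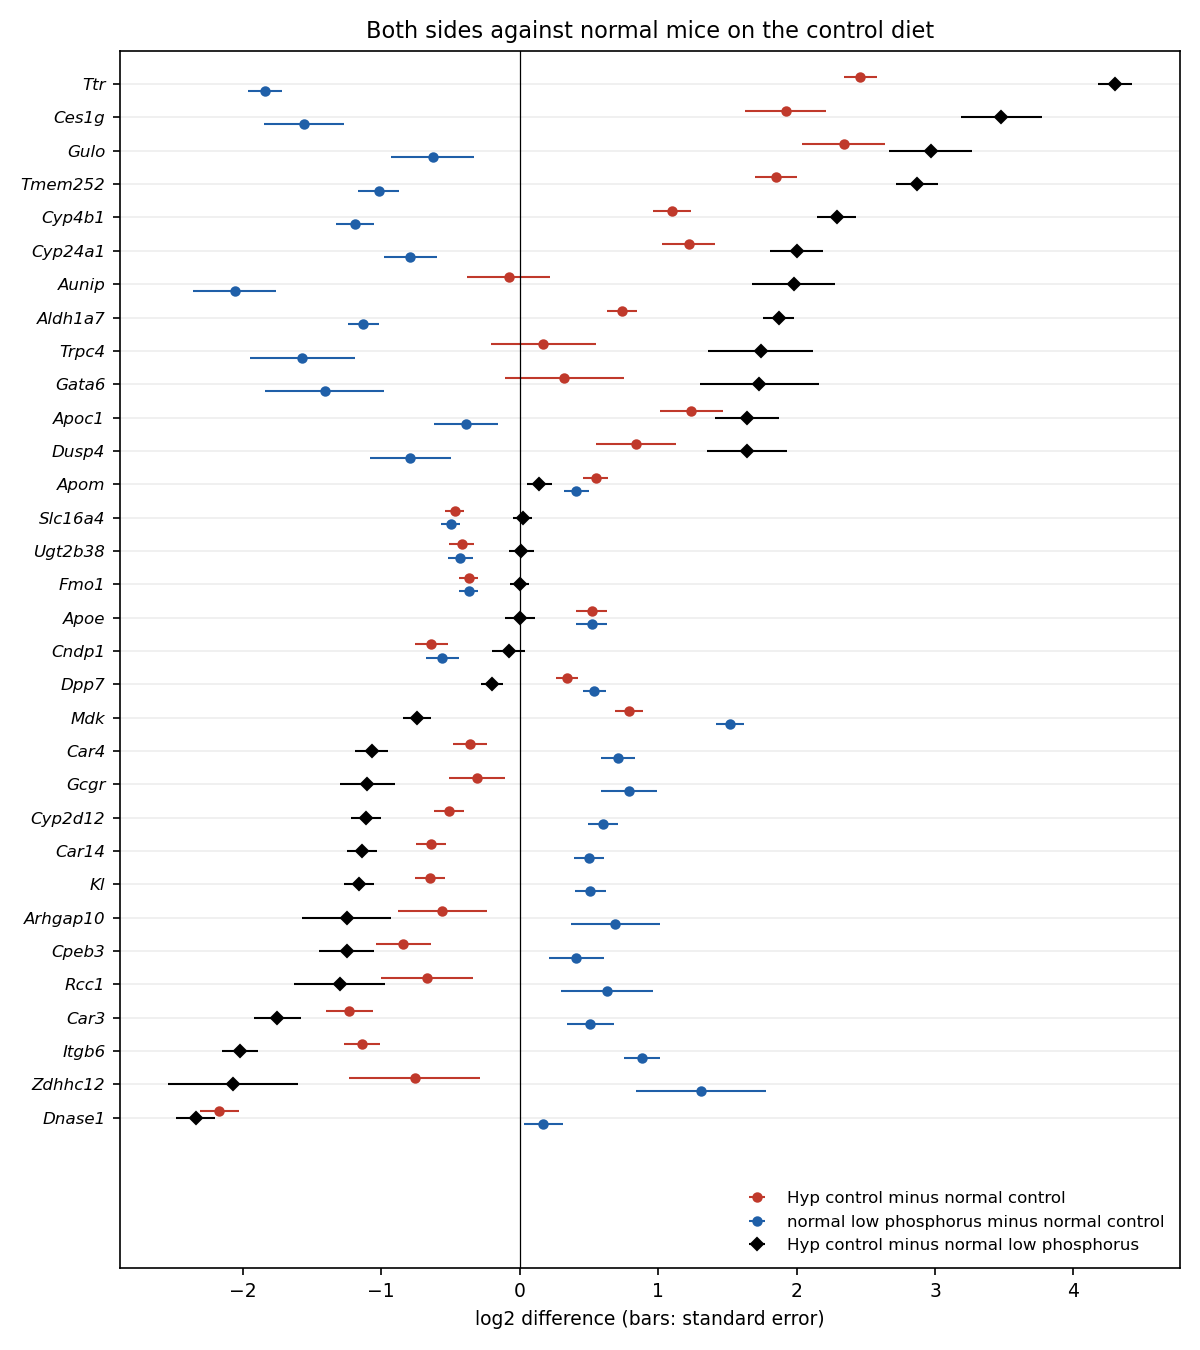
Log2 differences with standard errors for the 24 largest called rises and falls and the 8 genes called in the same direction on both sides: Hyp control minus normal control (red), normal low phosphorus minus normal control (blue) and Hyp control minus normal low phosphorus (black). For Ttr the red point is at 2.46 and the blue at -1.84, whereas for Mdk both lie above 0 at 0.79 and 1.52.

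Males and females share no pool, so each sex gives its own value of the difference. The tests do share the spread of each feature, estimated in the same fit from all pools of the study. The p-values and calls of the sexes are therefore not independent. In males 168 features (0.902%) were called, 106 higher (0.569%) and 62 lower (0.333%). In females 137 (0.735%) were called, 46 higher (0.247%) and 91 lower (0.488%). The female split moved with the scaling: 52 higher and 45 lower with arrays scaled to a common median, and 68 and 77 after quantile normalization. Single pools also moved these counts. Without male normal low phosphorus pool 1, 2 or 3 the males had 36, 41 or 39 lower features, and without pool 3 they had 67 higher. Without female normal low phosphorus pool 1 or 2 the females had 49 or 46 lower features. Of the 168 features called in males, 150 (89.3%) had the same sign in females and 107 (63.7%) also an unadjusted p under 0.05 there, a level that 11.0% of all features reached in females in either direction. Of the 137 called in females, 124 (90.5%) had the same sign in males and 102 (74.5%) such a p, reached by 8.29% of all features. Both sexes called 56 features, 33.3% of the male and 40.9% of the female calls. A feature with a small estimated spread passes more easily in both sexes. The shared spread thus favours this overlap and the 63.7% and 74.5%, by an amount that was not tested.

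The male minus female difference of the comparison passed for 13 features (0.0698%), with 10 above 0 (0.0537%) and 3 below 0 (0.0161%). It passed for 7 without female Hyp control pool 3, and for 7 without male normal low phosphorus pool 3. Cyp4b1 differed most. It had 10119.7, 11371.1 and 11613.2 in female Hyp control and 576.9, 440.8 and 993.2 in female normal low phosphorus pools, a log2 difference of 4.12 ± 0.20. In males it had 29949.6, 28634.4 and 31523.5 against 21658.8, 22483.6 and 21584.0, a difference of 0.45 ± 0.20. The females were far apart, and the males were close, with signals near the top of the array range.

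Rdh16f2, a retinol dehydrogenase family gene, passed in males and not in females, with 1787.2, 2073.1 and 2277.6 in Hyp control against 503.1, 430.1 and 526.8 in normal low phosphorus pools (2.07 ± 0.12). In females it had 6085.4, 6185.4 and 5949.7 against 5382.2, 5286.8 and 5177.9 (0.20 ± 0.12, adjusted p = 0.564). Pigr, the receptor that carries polymeric antibodies across epithelia, was higher in male Hyp control pools, with 2700.4, 2659.8 and 2627.0 against 1376.4, 1108.5 and 986.6. In females the order was turned, with 234.9, 216.0 and 171.7 against 474.9, 357.5 and 301.3, although the female difference of -0.85 ± 0.24 did not pass (adjusted p = 0.106). The phosphate and hormone genes above had no called difference between the sexes. For Cyp24a1 the male difference was 2.57 and the female 1.43, and the difference of 1.14 ± 0.38 did not pass (adjusted p = 0.605). For Ces1g the male difference of 4.97 and the female one of 2.00 differed by 2.97 ± 0.58 (adjusted p = 0.0637).

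**Figure D5:**
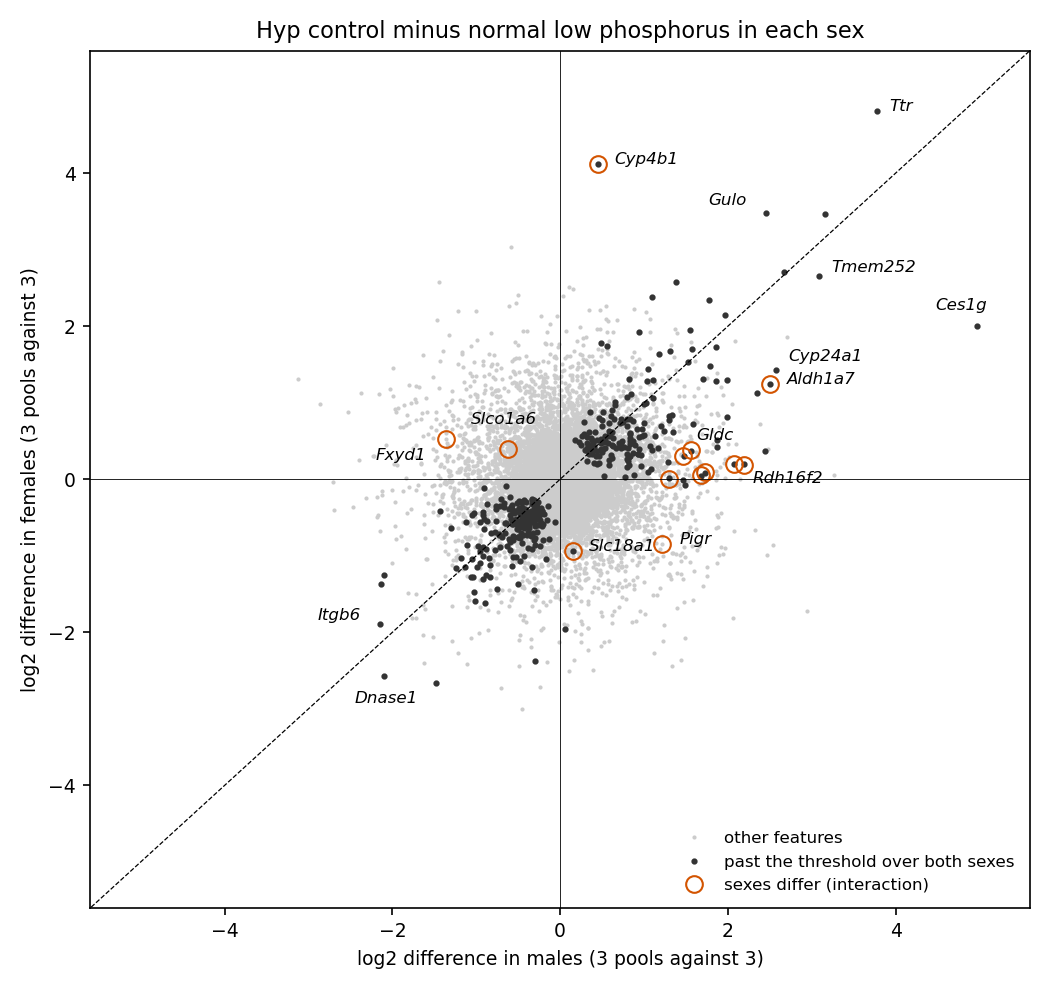
Log2 differences, Hyp control minus normal low phosphorus, in males (horizontal) and in females (vertical) for all features, with called features in dark grey and the 13 features whose sexes differed ringed in orange; the dashed line marks equal differences. Cyp4b1 lies at 0.45 in males and 4.12 in females, while Dnase1 and Itgb6 lie close to the line.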

How the data were processed

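Per the file headers, each array came as 1 table of linear signal intensity by probe set; the authors used GCOS 1.2, per the submitters' processing notes, and the summary algorithm is not given in the sources used here. On every array the trimmed mean of the 100 probe sets common to both chips was 1200, so the deposited intensity was already scaled. Symbols came from the platform table, updated through Entrez to GRCm38.p6: of 45137 probe sets that are not controls, 35041 had 1 symbol, 936 several and 9160 none. Kept probe sets exceeded the median of the array on 3 or more of the 24 arrays of their chip; a gene is its kept probe set with the highest mean, from the 430A chip where possible. After a floor of 1, log2 signals were fitted with limma 3.58.1 (lmFit, eBayes; R 4.3.3) with 8 group means per chip. P-values were adjusted by Benjamini-Hochberg over both chips. The fit was tested on simulated data. Further probe sets of a gene were fitted one by one, an alternative added after seeing the data.

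Named genes are the 12 largest rises and 12 largest falls called with the same sign in both sexes, up to 4 members per list by adjusted p, a fixed set of mineral and kidney genes, the 8 clearest sex differences, and up to 8 genes called in 1 direction on both sides against normal control mice. The gene lists and members were chosen with earlier results of these data known. Genes named outside this rule are marked as chosen after their values were seen. Alternatives covered the filter, pseudocount, scaling, eBayes options, adjustment, probe set, pools fitted, the series number as a block and each pool left out. The series numbers in the titles are not stated to pair pools.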

Additional observations from a re-analysis of the deposited data

Results flagged for a closer look

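The comparison of Hyp control with normal low phosphorus pools differed between males and females for 13 features by limma's test of the difference itself (male minus female, 3 pools against 3 in each sex). Cyp4b1 differed by -3.67 ± 0.28 on the log2 scale (adjusted p = 7.28e-07) and Rdh16f2 by 1.87 ± 0.16 (adjusted p = 2.92e-06). The gene model 9030619P08Rik differed by 2.00 ± 0.24, with 2.19 ± 0.17 in males and 0.19 ± 0.17 in females. Pigr differed by 2.07 ± 0.33 and Fxyd1, a regulator of the sodium pump, by -1.89 ± 0.34, and in both the sexes pointed in opposite directions. Fxyd1 was -1.36 ± 0.24 in males and 0.53 ± 0.24 in females.

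Slc18a1, a vesicular monoamine carrier, differed by 1.10 ± 0.18, with 0.15 ± 0.13 in males and -0.94 ± 0.13 in females. The organic anion carrier Slco1a6 differed by -1.02 ± 0.17, with -0.62 ± 0.12 in males and 0.39 ± 0.12 in females. Aldh1a7 differed by 1.26 ± 0.22 (adjusted p = 0.0286), being higher in both sexes and more so in males, at 2.50 ± 0.16 and 1.24 ± 0.16. Gldc, the glycine decarboxylase of the glycine cleavage system, differed by 1.17 ± 0.22, with 1.47 ± 0.15 in males and 0.30 ± 0.15 in females.

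The 4 probe sets with no gene or several genes in the annotation differed by 1.64 ± 0.20, 1.64 ± 0.20, 1.19 ± 0.15 and 1.29 ± 0.18. In males they gave 1.73, 1.68, 1.56 and 1.30, and in females 0.09, 0.05, 0.38 and 0.01.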

How the results depend on the processing

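Calls moved with the fit more than directions did. Of 1641 values of the 77 called genes named or examined, under all alternatives, 1435 kept direction and call, 205 lost the call and 1 turned: without the filter another probe set stood for Trpc4 and gave -0.63 (adjusted p = 0.893). Of 1774 values of the 83 genes not called, 1750 kept that state and 24 gained a call. Signs also turned in 42 values of 17 genes called under neither setting. With only the 12 compared pools, calls fell to 101 higher and 102 lower, in males to 62 and 28, in females to 27 and 40, and for the sex difference to 7; fewer arrays then estimate the spread. Without the filter 40 features were lower in males and 30 higher in females. In females 45 were lower with arrays scaled to a common median, 143 with trend and robust eBayes and 142 when adjusted within each chip. With the series number as a replicate block, 466 features were called, 377 of them among the 379, with 140 lower in females and 22 sex differences; same-numbered pools correlated at -0.052 to 0.087 (median 0.034) and others at -0.098 to 0.086 (median -0.015). No pair exceeded 0.1, and a pool correlated best with its own number in 23 of 36 comparisons with another group. All 6 pairs of pools numbered 3 lay above 0, and number 3 had the lowest array median in 7 of 8 groups on each chip, so the number moved with array signal. The causes of these shifts were not tested. Leaving out 1 pool at a time gave 141 to 168 higher and 157 to 221 lower features. In males it gave 67 to 116 and 36 to 65, in females 32 to 45 and 46 to 129, and 7 to 19 sex differences. Eif2s3y was nominally called at -0.95 through female background signals of at most 6.9, and gave -0.02 with 50 added. Signals near background limit the folds of Gulo, Ces1g, Apoc1, Aldh1a7, Dusp4, Aunip and Gata6.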
